A study of Mus musculus with 8 samples.

Results

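The mitochondrial chaperones and proteases described here were 10 nuclear genes, picked by symbol from a count table of 43430 genes. They comprised 5 chaperone genes (Hspa9, Hspd1, Hspe1, Trap1 and Dnaja3) and 5 protease genes (Lonp1, Clpp, Clpx, Afg3l2 and Yme1l1). The cells were lung endothelial cells, sorted by the surface protein CD31 from C57BL/6 mice on postnatal day 15, and their RNA was sequenced. Of 8 libraries, 4 came from wild-type (WT) mice and 4 from knockout (KO) mice with a conditional endothelial deletion of QPC, a subunit of respiratory complex III. QPC is read here as Uqcrq, a gene for a subunit of that complex, since the labels give no gene symbol. The labels give both groups the same tamoxifen treatment, on postnatal days 0 to 4. Neither the Cre driver nor the targeted allele is named in the sources used here. Nor do the labels say whether a library came from 1 animal or from several. The p-values therefore reflect the spread among these libraries, part of which may be technical. The comparison of KO with WT asks how the transcripts of this quality-control machinery stood in endothelial cells after deletion of the complex III subunit.

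Most mitochondrial proteins are made in the cytosol and enter the organelle unfolded. Inside, the mitochondrial Hsp70 (Hspa9, mortalin) pulls them in and folds them with its J-domain partner Dnaja3, and the chaperonin chamber of Hspd1 with its lid Hspe1 folds many of them to completion. Trap1 is the mitochondrial member of the Hsp90 family. Proteins that stay misfolded are degraded by Lonp1 and by the ClpXP protease in the matrix, and by membrane proteases built from Afg3l2, which faces the matrix, or Yme1l1, which faces the intermembrane space. A mitochondrial unfolded protein response, in which several of these chaperone and protease genes are induced, is known from cells whose mitochondrial proteins misfold.

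Hspd1 and Hspe1 lie head to head on chromosome 1, and their start regions are shown because the 2 genes encode partner proteins and overlap there. In GRCm38 the annotated Hspd1 gene runs from 55077835 to 55088243 on the minus strand and Hspe1 from 55088132 to 55091307 on the plus strand, so that 112 bases of exon are shared on opposite strands. That is 4.24% of the Hspd1 exon length and 7.60% of that of Hspe1. RefSeq (GRCm38.p6) gives Hspd1 a start at 55088243 and another at 55087932, which lie 95 and 216 bases on either side of the Hspe1 start at 55088148. The 30 bases printed for Hspe1 (chr1:55088053-55088082, plus strand) thus lie upstream of Hspe1 and, read the other way, upstream of the second Hspd1 start. They also lie inside an annotated first exon of a longer Hspd1 transcript. Capitals mark matches to TTCNNGAA, the inverted repeat of heat shock elements, in Hspe1. In Trap1 (chr16:4077828-4078060, minus strand) and Lonp1 (chr17:56626904-56627153, minus strand) they mark matches on either strand to TGACG, the core of cAMP response and ATF sites. Trap1 and Lonp1 are shown as a chaperone and a protease gene with more than 1 such match, outside any annotated exon. In Trap1 the matches begin 47 and 44 bases before the start and overlap in TGACGTCA, which reads the same on both strands. They are therefore 1 site. In Lonp1 the capitals begin 42 and 7 bases before the start and lie apart. All are given 5′ to 3′ on the strand of the named gene.
Hspe1: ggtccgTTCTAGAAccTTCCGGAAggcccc
Trap1: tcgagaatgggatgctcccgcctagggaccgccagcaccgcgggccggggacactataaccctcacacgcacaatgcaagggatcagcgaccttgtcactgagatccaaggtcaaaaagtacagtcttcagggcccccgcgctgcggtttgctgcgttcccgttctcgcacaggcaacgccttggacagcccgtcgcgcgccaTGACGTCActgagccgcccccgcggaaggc
Lonp1: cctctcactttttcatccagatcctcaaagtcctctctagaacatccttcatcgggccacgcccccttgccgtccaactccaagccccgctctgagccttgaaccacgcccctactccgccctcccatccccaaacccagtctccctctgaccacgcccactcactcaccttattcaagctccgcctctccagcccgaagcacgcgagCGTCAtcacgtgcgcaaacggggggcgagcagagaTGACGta
The pair of matches at Hspe1, TTCTAGAA and TTCCGGAA, begin 89 and 79 bases before its start. RefSeq windows of 300 bases (250 before and 50 after a start) were used for 8 of the 10 members, with 9 windows in all. Hspa9 and Afg3l2 were not analysed here for sequence, so the counts below leave both out. Both strands were searched. The motif TTCNNGAA was in 3 of the 9 windows, against 8.52% of 32851 windows over all genes, and 2 of the 3 were the overlapping windows of Hspd1 and Hspe1. The third was that of Clpp, where the match begins at base 34 after the start. TGACG was in 6 of 9 windows (20.8% of all windows), the ETS core CCGGAAG, which can overlap TTCNNGAA, in 5 (8.86%), and the core of NRF-1 sites, GCGC followed by 2 bases of any kind and GCGC, in 4 (6.23%). CCAAT was in 4 (37.4%), the E-box CACGTG in 2 (7.15%) and TGATGNAAN, the core of C/EBP-ATF response elements, in 0 (3.95%). The second Hspd1 window and the Hspe1 window share 285 of their 300 bases, so their TGACG, ETS and NRF-1 matches are the same letters counted for both. Member windows had 55.3% to 73.3% G and C, above the median of 52.7% over all windows, and these matches are a description of the letters only.

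WT replicate 3 was the shallowest library with a total of 6407924 counts, and the other 7 held 11209714 to 13981329. Uqcrq had 24.5 to 31.5 CPM (read counts scaled to library size, with TMM normalisation) in WT and 1.59 to 15.6 CPM in KO, a mean of 37.3% of the WT level (exact two-sided permutation p = 0.02857, the smallest that 4 against 4 can give). Its edgeR adjusted p was 0.179. All 8 markers of endothelium were measured, with a summed level of 13183 to 15470 CPM in WT and 11387 to 14801 CPM in KO, and of these Tek and Erg were called lower in KO. Alveolar type 2 markers, from epithelial cells that a lung digest can carry along, summed to 3805 to 21996 CPM in WT and 3644 to 16005 CPM in KO, with 0 of 8 called. Leukocyte markers summed to at most 74.1 CPM and mesenchymal markers to at most 921 CPM, with ranges that overlapped between the groups and 0 called. By the quasi-likelihood test of edgeR with Benjamini-Hochberg adjustment at 0.05, 3.63% of 12689 genes tested were called, 2.25% as higher and 1.39% as lower in KO. All 10 members passed the filter on low counts.

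Among the chaperones Hspa9 rose from 109 ± 14.2 CPM in the WT cells to 256 ± 5.05 CPM in the KO cells (SD, n = 4 each), and none of the other 9 members passed the test. Hspd1, Hspe1 and Trap1 had KO means 1.46 to 1.60 times the WT mean, but adjusted p of 0.0962 to 0.411. On simulated data the edgeR fit called 1.49% of genes changed 1.5-fold and 22.4% of those changed 2-fold. These genes were drawn at random from all that passed the filter, so the shares are not those for the members. A member that was not called is still not shown to be unchanged. All 10 fitted log2 fold changes were above 0, against 51.0% of all genes tested. Of the members, 1 of 10 was called higher, where 2.25% of all genes tested were. In 3 of 10 members, all of them chaperones, every KO library lay above every WT library, where 6.94% of all genes tested did so. In 0 members every KO library lay below every WT library (4.67% of all genes tested), and in 11.6% of all genes tested the groups did not overlap in one or the other direction.

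Hspa9 (ENSMUSG00000024359, chromosome 18, 34937414 to 34954357, minus strand, GRCm38) encodes the mitochondrial Hsp70, the motor that draws imported proteins into the matrix. In WT replicates 1 to 4 it stood at 120.5, 104.8, 120.0 and 90.8 CPM. In KO replicates 1 to 4 it stood at 260.5, 255, 258 and 249 CPM. The lowest KO library was more than 2 times the highest WT library's level, and the groups stood far apart. Its fitted log2 fold change was 1.23 (SE 0.15, 95% interval 0.92 to 1.54, edgeR adjusted p = 0.000228), or 2.35-fold, and 4.53% of genes tested had a larger one. In bulk RNA such as this, more transcript per cell and a larger share of cells with the transcript cannot be told apart. The call held in all 22 alternative analyses, with log2 fold changes of 1.05 to 1.28. The KO libraries varied little: their coefficient of variation was 1.97%, close to the 1.78% that counting error alone gives, and 0.134% of genes tested had a smaller one in KO. In WT it was 13.0%, against 3.03% from counting error.

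Hspd1 (ENSMUSG00000025980) encodes the Hsp60 subunit of the chaperonin chamber. The WT libraries, in the order of replicates 1 to 4, had 69.1, 53.1, 93.4 and 92.7 CPM, and the KO libraries, in that order, 152, 114, 123 and 104 CPM. Every KO library lay above every WT library, with KO replicate 4 nearest to the WT values. The log2 fold change of 0.68 (SE 0.21, 95% interval 0.23 to 1.13) had an edgeR adjusted p of 0.0962 and did not pass. It passed in 1 of 22 alternatives, edgeR's newer dispersion option (adjusted p = 0.0482), in a range up to 0.596.

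Hspe1 (ENSMUSG00000073676) encodes Hsp10, the lid of that chamber. Its WT levels, in the same order, were 26.9, 34.2, 79.1 and 21.7 CPM, and its KO levels 75.6, 50.6, 59.7 and 67.6 CPM. WT replicate 3, the shallowest library, stood above all KO libraries, while the other 3 WT libraries lay below all of them. With all libraries the log2 fold change was 0.65 (SE 0.34, 95% interval -0.080 to 1.39, edgeR adjusted p = 0.411). Without WT replicate 3 it was 1.20 (edgeR adjusted p = 0.0234). It also passed without both WT replicate 3 and KO replicate 1 (1.11, edgeR adjusted p = 0.0467). When a trend on transcript length and GC content, fitted over all genes tested, was removed from every library it was 0.15 (edgeR adjusted p = 0.958). With the trend fitted on well-expressed genes alone it was 0.37 (edgeR adjusted p = 0.788). Named pseudogene copies of Hspe1 held at most 17 counts in any library, and how reads shared with such copies were assigned is unknown.

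Trap1 (ENSMUSG00000005981), the mitochondrial Hsp90, had 53.6, 41.3, 58.0 and 38.5 CPM in WT and 71.6, 75.9, 60.8 and 71.1 CPM in KO. The groups did not overlap, though KO replicate 3 was within 3 CPM of WT replicate 3. Its log2 fold change of 0.55 (SE 0.22, 95% interval 0.08 to 1.01, edgeR adjusted p = 0.225) passed in 0 of 22 alternatives. Dnaja3 (ENSMUSG00000004069), a J-domain protein that stimulates the ATPase of Hspa9, had 55.0, 41.9, 41.6 and 51.2 CPM in WT and 80.0, 35.5, 59.0 and 51.7 CPM in KO. KO replicate 1 held the highest value and KO replicate 2 the lowest of all 8 libraries. The log2 fold change was 0.25 (SE 0.26, 95% interval -0.30 to 0.81, edgeR adjusted p = 0.788). Parts of the Dnaja3 exons also belong to Coro7 (3.91%, opposite strand) and Vasn (4.09%, same strand), and the strand setting of the counting is not given in the sources used here.

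**Figure D1:**
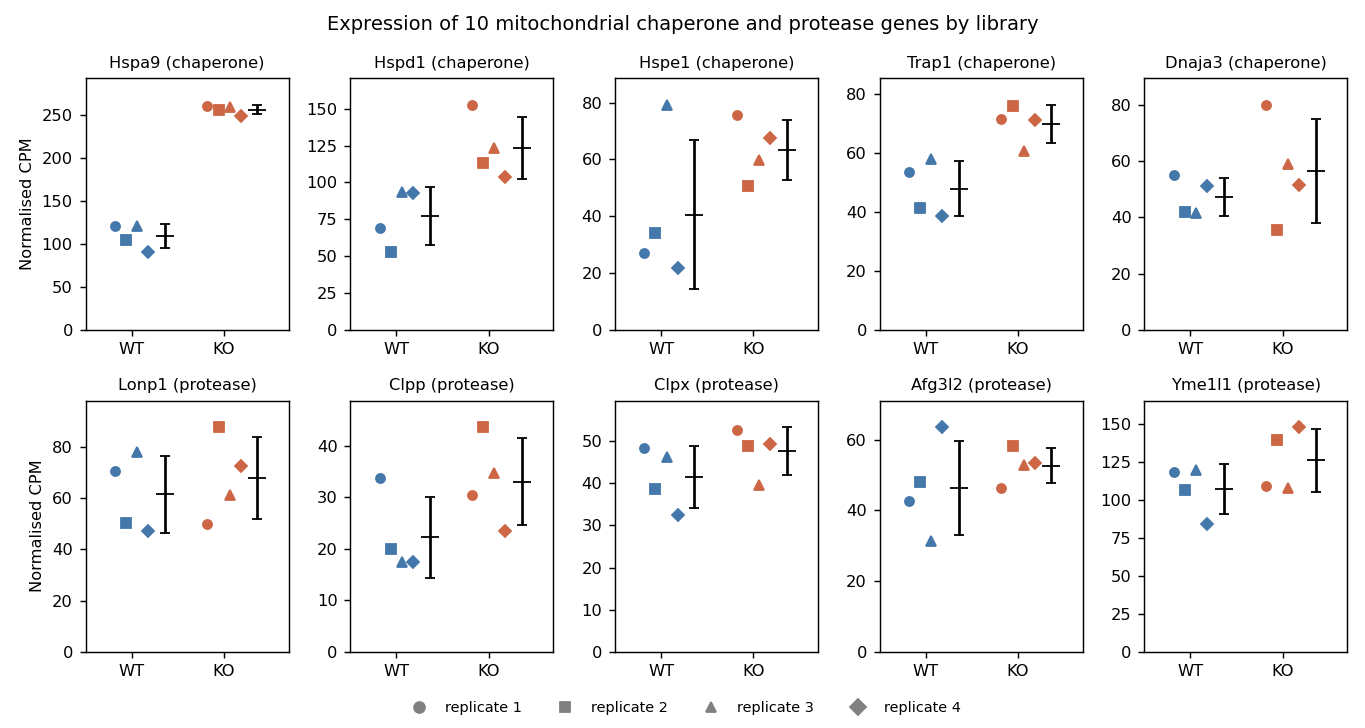
Normalised CPM (vertical axis, linear from 0) of the 10 genes in 4 WT and 4 KO libraries. Symbols give the replicate (WT blue, KO orange), and black bars the mean ± SD of each group. Hspa9 in KO sits between 249 and 260.5 CPM, above all WT libraries, while in the lower row all 5 proteases overlap between the groups.

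Of the 5 protease genes 0 were called by edgeR (3.63% of all genes tested), 0 had an unadjusted p below 0.05 (15.2%), and 0 were without overlap between the groups (11.6%). With 5 genes, counts of 0 are near what these shares give. Limma voom and DESeq2 called 0 of them too. Lonp1 (ENSMUSG00000041168, chromosome 17, 56614297 to 56626887), the ATP-dependent protease that clears damaged matrix proteins, had 70.8, 50.2, 77.9 and 47.1 CPM in WT and 50.01, 87.6, 61.2 and 72.4 CPM in KO. Highest was KO replicate 2, but 2 of the 4 KO libraries lay below the WT mean. Its log2 fold change was 0.14 (SE 0.24, 95% interval -0.37 to 0.66, edgeR adjusted p = 0.895). Without KO replicate 2 the sign of that small value turned (-0.0030).

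Clpp (ENSMUSG00000002660), the peptidase chamber of ClpXP, was the protease gene with the largest fitted change, 0.57 (SE 0.33, 95% interval -0.13 to 1.27, edgeR adjusted p = 0.48). Its WT levels were 33.9, 20.01, 17.5 and 17.5 CPM and its KO levels 30.4, 43.6, 34.7 and 23.4 CPM. WT replicate 1 stood apart from the other 3 WT libraries, and without it the log2 fold change was 0.85 (edgeR adjusted p = 0.236). Clpx (ENSMUSG00000015357), the unfoldase that feeds that chamber, had 48.4, 38.6, 46.3 and 32.4 CPM in WT and 52.7, 48.9, 39.6 and 49.2 CPM in KO. In 3 of the 4 KO libraries it lay just above the highest WT library. Its log2 fold change was 0.20 (SE 0.24, 95% interval -0.31 to 0.71, edgeR adjusted p = 0.828).

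Afg3l2 (ENSMUSG00000024527), a subunit of the m-AAA protease of the inner membrane, had 42.6, 48.0, 31.4 and 63.5 CPM in WT and 46.4, 58.2, 52.8 and 53.4 CPM in KO. All KO values lay within the WT range, with a coefficient of variation of 9.21% in KO and 28.8% in WT. The log2 fold change was 0.18 (SE 0.25, edgeR adjusted p = 0.86). Yme1l1 (ENSMUSG00000026775), the i-AAA protease that helps to process the fusion protein Opa1, had 118, 107, 120.0 and 84.0 CPM in WT and 109, 139.7, 108 and 148 CPM in KO. KO replicates 2 and 4 were above the WT range and the other 2 inside it. Its log2 fold change was 0.23 (SE 0.18, 95% interval -0.15 to 0.62, edgeR adjusted p = 0.656). The intervals of Lonp1, Clpx, Afg3l2 and Yme1l1 reached 1.54 to 1.63-fold at their upper ends, and 0.77 to 0.90-fold at their lower ends.

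**Figure D2:**
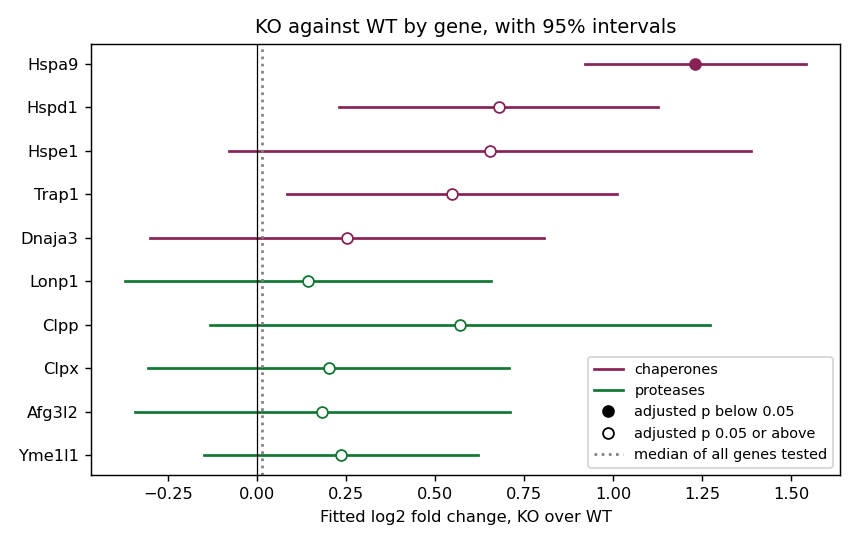
Fitted log2 fold change of KO over WT (horizontal axis) for the 10 genes, with 95% intervals from the edgeR fit as lines and the median of all genes tested as a dotted line. Filled points passed the adjusted threshold and open points did not. Hspa9 at 1.23 is the filled point, the other chaperones lie at 0.25 to 0.68 and the proteases at 0.14 to 0.57.

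The 5 chaperones stood at a median log2 fold change of 0.65 and the 5 proteases at 0.20, where the median over all genes tested was 0.01. With the trend on length and GC content fitted over all genes removed, the medians were 0.26 and 0.11, and that over all genes was -0.12. With the trend fitted on well-expressed genes, an alternative chosen after seeing the data, they were 0.42 and 0.20, and that over all genes was -0.023. In the WT libraries the summed CPM of the chaperones was 1.04, 1.04, 1.34 and 1.21 times that of the proteases, a ratio without correction for gene length that serves only to compare libraries. In the KO libraries it was 2.21, 1.40, 1.90 and 1.57. Every KO library was above every WT library, KO replicate 2 only just. The mean ratio of the WT libraries was 1.16 ± 0.144 and that of the KO libraries 1.77 ± 0.360 (SD, n = 4 each). Without Hspa9 the groups overlapped, at 0.647 to 0.928 in WT and 0.729 to 1.31 in KO. The summed protease CPM, 279 ± 30.7 in WT against 327 ± 42.3 in KO, overlapped too. Hspa9 supplied 16.8% to 19.4% of the CPM of all 10 genes in WT and 28.0% to 30.1% in KO. These sums describe genes chosen with earlier results of these data known, and no test was made of them.

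**Figure D3:**
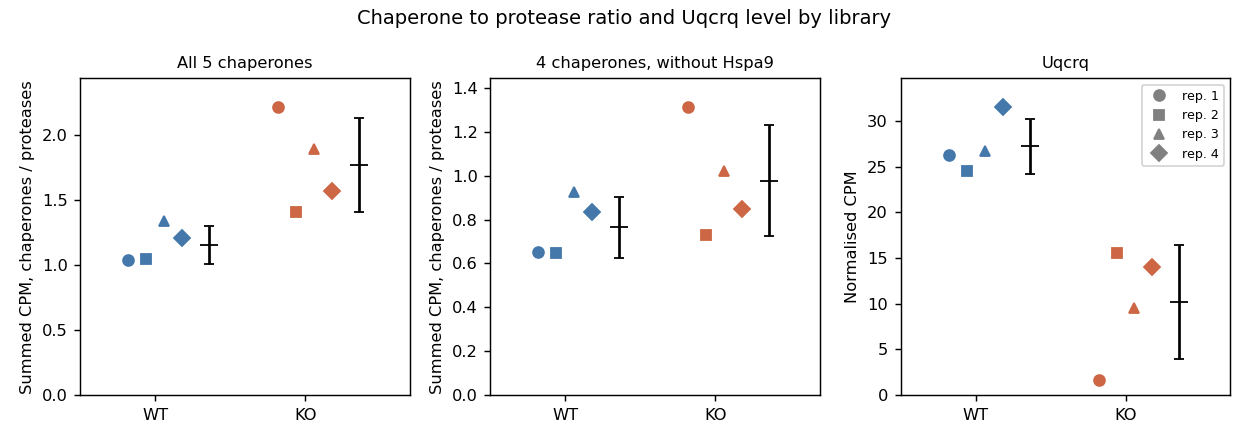
Left and middle, summed CPM of the chaperones divided by that of the proteases in each library, with all 5 chaperones and without Hspa9; right, Uqcrq in CPM (vertical axes linear from 0). Symbols give the replicate and bars the mean ± SD. The KO ratios with Hspa9 run from 1.40 to 2.21 and the WT ratios from 1.04 to 1.34, whereas without Hspa9 they overlap.

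Pairs of genes were compared within each library, which needs no scaling between libraries. Hspd1 and Hspe1, Clpx and Clpp, and Hspa9 and Dnaja3 encode partner proteins. Yme1l1 and Afg3l2 belong to separate membrane proteases, and Hspa9 and Lonp1 were paired as a leading matrix chaperone and protease. Hspa9 stood to its J-domain partner Dnaja3 at a log2 ratio of 1.20 ± 0.299 in WT against 2.24 ± 0.472 in KO (SD, n = 4 each). To Lonp1 it stood at 0.85 ± 0.193 in WT against 1.94 ± 0.363 in KO. In both pairs all 4 KO libraries were above all 4 WT libraries. Both have Hspa9, the called member, on top, so they largely restate its rise. Each gave an exact two-sided permutation p of 0.02857, the smallest possible, and an adjusted p of 0.0714 over the 5 pairs, which did not pass. Hspd1 to Hspe1 had a log2 ratio of 1.08 ± 0.817 in WT and 0.96 ± 0.239 in KO (exact permutation p = 0.8). In single WT libraries that ratio ran from 0.24 in replicate 3 to 2.09 in replicate 4, while the KO libraries lay between 0.61 and 1.17. Clpx to Clpp lay between 0.51 and 1.40 in WT and between 0.17 and 1.07 in KO, a mean difference of -0.38 (exact permutation p = 0.229). Yme1l1 to Afg3l2 was 1.24 ± 0.643 in WT and 1.25 ± 0.179 in KO (exact permutation p = 1.0). The adjusted p of these last 3 pairs was 0.381 or higher.

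**Figure D4:**
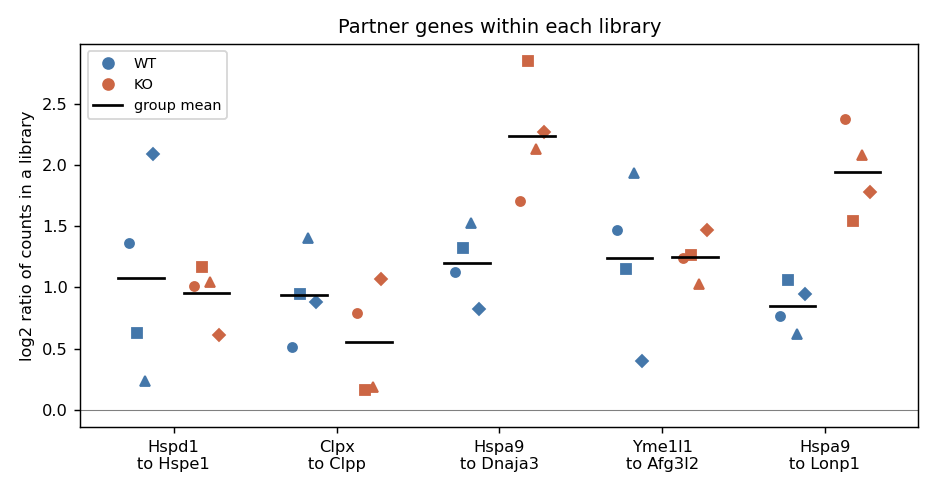
log2 ratio of the counts of 2 genes within a library (vertical axis) for 5 pairs, with WT in blue, KO in orange, replicates by symbol and group means as black lines. The 2 ratios with Hspa9 on top separate the groups, with KO means of 2.24 and 1.94, and the other 3 overlap.

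Levels of different genes were compared per kilobase of exon, on the scale of CPM per kilobase. In WT the chaperonin genes Hspd1 (29.2 ± 7.42) and Hspe1 (27.5 ± 17.8) and the Hsp70 gene Hspa9 (25.3 ± 3.29) had the highest levels, and their order did not go beyond their spread. Trap1 (18.6 ± 3.66) and Clpp (18.2 ± 6.42) followed, then Lonp1 (14.1 ± 3.47), Yme1l1 (13.4 ± 2.07), Dnaja3 (12.1 ± 1.73) and Clpx (11.9 ± 2.10), and neighbours in this order overlapped. Afg3l2 was lowest at 4.70 ± 1.35 and lay below every other member in each WT library. In KO the order opened with Hspa9 (59.4 ± 1.17), whose lowest library (57.8) was next to the highest library of Hspd1 (57.7). Hspd1 (46.6 ± 7.98) and Hspe1 (43.0 ± 7.27) came next, Trap1 (27.1 ± 2.49) and Clpp (27.0 ± 6.91) had like means, and Yme1l1, Lonp1, Dnaja3 and Clpx lay at 13.6 to 15.8. Afg3l2 (5.34 ± 0.491) was again lowest. The exon length counts every annotated exon of a gene once (9874 bases in Afg3l2, 4310 in Hspa9), so a gene with rarely used exons comes out low.

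The wider machinery was taken from 4 lists of 31 mitochondrial genes, all of them tested: cochaperones, other proteases, processing peptidases, and scaffolds and regulators of the proteases. Of these 31 genes 1 was called higher and 0 lower, a count near the 2.25% and 1.39% of all genes tested, with a median log2 fold change of 0.43 (0.01 over all genes). Log2 fold changes were above 0 in 25 and below 0 in 6 (51.0% of all genes tested were above). They were above 0 in 8 of 9 other proteases and 5 of 6 processing peptidases. In 6 of the 31 every KO library lay above every WT library (6.94% of all genes tested), and in 0 below (4.67%). The call was Clpb, a disaggregase of the intermembrane space. It had 16.1, 11.2, 5.08 and 22.4 CPM in WT and 29.8, 39.9, 40.5 and 50.1 CPM in KO, without overlap (log2 fold change 1.54, SE 0.40, edgeR adjusted p = 0.0421). That call was near the threshold: it ended in 7 of 22 alternatives, 6 of which left out 1 library, with an adjusted p of up to 0.14 without KO replicate 4. Of 10 cochaperone genes 6 had a log2 fold change above 0 and 4 below, where 51.0% of all genes tested were above 0. Grpel1, a nucleotide exchange factor of Hspa9, averaged 48.1 ± 7.13 CPM in WT against 68.5 ± 8.46 CPM in KO (SD, n = 4 each, without overlap, edgeR adjusted p = 0.252). In the same list Grpel2 had a log2 fold change of 0.052 (edgeR adjusted p = 0.989) and Dnlz one of -0.026 (edgeR adjusted p = 0.99). Dnajc11, also without overlap, had one of 0.88 (edgeR adjusted p = 0.0707).

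Among 9 other proteases 0 were called (3.63% of all genes tested), with a median log2 fold change of 0.48. In lists as short as these, counts of 0 are near what that share gives. The smallest p belonged to Spg7, the partner of Afg3l2 in the m-AAA protease (45.8 ± 5.68 CPM in WT against 63.8 ± 15.9 CPM in KO, edgeR adjusted p = 0.36), to Htra2 and to Oma1, the stress-activated protease of the inner membrane. Oma1 averaged 9.33 ± 4.28 CPM in WT against 18.5 ± 7.06 CPM in KO (edgeR adjusted p = 0.388). Of 6 peptidases that cleave import signals from proteins or degrade the released peptides, 0 were called (3.63% of all genes tested). Nln, which degrades such peptides, stood first among them, at 15.1 ± 4.33 CPM in WT against 28.7 ± 5.01 CPM in KO (edgeR adjusted p = 0.188), followed by Pitrm1 and Pmpca. All 6 scaffolds and regulators had log2 fold changes above 0 (median 0.57), as did 51.0% of all genes tested. Of these 6 genes 0 were called (3.63% of all genes tested). Stoml2, which holds Yme1l1 in a membrane complex, averaged 29.9 ± 5.36 CPM in WT against 55.2 ± 1.60 CPM in KO and stood next to the threshold (edgeR adjusted p = 0.053). It passed in 7 of 22 alternatives, in a range from 0.016 to 0.484. The prohibitin gene Phb2 averaged 106 ± 33.6 CPM in WT against 167 ± 13.7 CPM in KO (edgeR adjusted p = 0.123), and Phb had a log2 fold change of 0.48 (edgeR adjusted p = 0.482).

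Among 10 listed regulators, of the mitochondrial stress response or of nuclear genes for mitochondria, 0 were called (3.63% of all genes tested). Log2 fold changes were above 0 in 5 and below 0 in 5, where 51.0% of all genes tested were above. Atf5, a transcription factor of the stress response, had 11.5, 17.2, 35.6 and 12.3 CPM in WT and 67.3, 49.2, 45.2 and 24.5 CPM in KO. WT replicate 3 lay above KO replicate 4, so the groups overlapped, and the log2 fold change of 1.29 (SE 0.40, edgeR adjusted p = 0.0921) did not pass. It passed in 7 of 22 alternatives, with an adjusted p of 0.0175 without WT replicate 3 and up to 0.564 over all. Eif2ak1, the kinase HRI that relays mitochondrial stress to the cytosol, averaged 70.5 ± 7.24 CPM in WT against 47.3 ± 8.40 CPM in KO, with all KO libraries below all WT libraries (edgeR adjusted p = 0.183). Gabpa, a transcription factor of nuclear genes for mitochondria, had a log2 fold change of -0.34 (edgeR adjusted p = 0.592).

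Related genes of the cytosol, the endoplasmic reticulum and the peroxisome were set beside the members. Of 8 such genes 2 were called higher and 0 lower, with a median log2 fold change of 0.42, where 2.25% of all genes tested were called higher. Log2 fold changes were above 0 in 7 and below 0 in 1, where 51.0% of all genes tested were above. In 5 of the 8 every KO library lay above every WT library (6.94% of all genes tested). In 0 every KO library lay below (4.67%). An upward shift was thus not particular to the mitochondrial members. Tcp1, a subunit of the cytosolic chaperonin, rose from 144 ± 16.4 CPM in WT to 258 ± 6.74 CPM in KO (fitted log2 fold change 0.84, SE 0.14, edgeR adjusted p = 0.00272). Hsp90ab1, the constitutive cytosolic Hsp90, rose from 1434 ± 75.9 CPM in WT to 1986 ± 87.7 CPM in KO (fitted log2 fold change 0.47, SE 0.11, edgeR adjusted p = 0.0189). With the length and GC trend from all genes removed, Tcp1 was at 0.73 (edgeR adjusted p = 0.106) and Hsp90ab1 at 0.22 (0.806). With that from well-expressed genes removed, Tcp1 kept its call at 0.81 (edgeR adjusted p = 0.00303) and Hsp90ab1, at 0.36, did not (0.0745). The Hsp90ab1 call ended in 8 of 22 alternatives, the replicate block among them (0.0689).

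The 5 genes whose profile over the 8 libraries was nearest to that of Hspa9, by the root mean square difference of log2 CPM taken relative to each gene's WT mean, were Actg1 (0.148), Gapdh (0.157), Rps2 (0.158), Flna (0.168) and Plaur (0.177). They encode a cytoplasmic actin, a glycolytic enzyme, a ribosomal protein, an actin-binding filamin and the urokinase receptor. Their fitted log2 fold changes were 1.22, 1.09, 1.36, 1.09 and 1.09. Values near that of Hspa9 follow from how these genes were picked, since the measure includes the shift from WT to KO. A gene with a smaller shift ranks lower by the same measure. The nearest of the other 9 members was Hspd1 with a difference of 0.49, at rank 387, followed by Trap1 (0.494, rank 402) and Hspe1 (0.549, rank 642).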

How the data were processed

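Raw read counts per gene of 8 RNA-seq libraries (4 WT, 4 KO) were analysed as the authors deposited them. The tools named in the submitters' processing notes are bcl2fastq, TopHat, HTSeq and edgeR, and the build is mm10. No version, annotation release, strand setting or filter is given in the sources used here. Each of the 8 value columns matched 1 sample title. Symbols matched 42462 of 43430 gene IDs; IDs without one took at most 0.101% of a library's counts. Gene models came from GENCODE M21 (GRCm38, the build called mm10) and promoter windows from RefSeq (GRCm38.p6).

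Counts were TMM-normalised and filtered (filterByExpr, minimum count 10, minimum total 15). KO was compared with WT by the edgeR 4.0.16 quasi-likelihood F test (robust, with genotype alone in the model; R 4.3.3). Its p-values were adjusted over 12689 genes (Benjamini-Hochberg, threshold 0.05). SEs were derived from the F statistic. CPM values are TMM-normalised. The common biological coefficient of variation was 63.5%. Ratios of genes (prior count 1) were compared by exact permutation. Counting error covers sampling of reads only, since the labels mention no molecular identifiers.

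The members and lists were chosen with earlier results of these data known. Named were all members, called genes of each wider list or else up to 3 with the smallest p, and the 5 genes nearest to Hspa9. Grpel1, Grpel2, Dnlz and Dnajc11 lie outside this rule and were named after their values were seen.

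Alternatives were DESeq2 size factors, library totals, no or a stricter filter, DESeq2 1.42.0, limma 3.58.1 voom with and without sample weights, edgeR's newer dispersion option, the replicate number as a block, Y-linked or alveolar type 2 levels as covariates, removal of length and GC trends, and leaving out libraries. The fits were tested on simulated data.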

Additional observations from a re-analysis of the deposited data

Results flagged for a closer look

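Clpp in WT replicate 1, at 33.9 CPM, lay far from the other 3 WT libraries, which held 17.5 to 20.01 CPM. The gap to the nearest of them was 0.846 of the group's range, above Dixon's critical share of 0.829 for 4 samples. It was the single such case among 32 groups of 4 values checked, and chance gives about 1 in 20.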

How the results depend on the processing

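The call of Hspa9 and its direction held in all 22 alternatives, and Trap1, Dnaja3 and the 5 proteases passed in 0 of them. The count of members called was 2 with edgeR's newer dispersion option (Hspa9 and Hspd1), 2 without both WT replicate 3 and KO replicate 1 (Hspa9 and Hspe1), and 1 to 2 when 1 library was left out. Log2 fold changes turned below 0 for Lonp1 without KO replicate 2 (-0.0030) and for Dnaja3 without both WT replicate 3 and KO replicate 1 (-0.016). Leaving out libraries gave up to 0.40 for Lonp1 and 0.42 for Dnaja3. Removing each library's length and GC trend as fitted over all genes gave a chaperone median of 0.26 and moved the median of all genes to -0.12. A robust trend from genes above a mean log2 CPM of 3, chosen after seeing the data, gave chaperone and protease medians of 0.42 and 0.20. All genes changed numbered 461 in the main analysis (61.8% higher), 788 by DESeq2, 746 with the newer dispersion option, 111 with the first length and GC trend removed (33.3% higher), and 270 (without KO replicate 3) to 446 when 1 library was left out; the cause of these shifts was not tested. Same-numbered libraries did not deviate together, with correlations of -0.098 to 0.010, and with the replicate number as a block 338 genes changed, Hspa9 among them (adjusted p = 0.0025). The ratios of Hspa9 to Dnaja3 and to Lonp1, that of Clpx to Clpp and the Uqcrq difference kept their direction in the alternatives run for them. With 1 library left out the log2 ratio difference of Hspd1 to Hspe1 ran from -0.40 to 0.22 and that of Yme1l1 to Afg3l2 from -0.27 to 0.24. On the simulated data DESeq2 made 97 calls, of which 33.0% were false, against 47 calls and 8.51% for edgeR. Depth was lowest in WT replicate 3.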

Other observations

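Among the 4 KO libraries the order of the chaperone to protease ratio was the reverse of the order of Uqcrq, a pattern seen after the values were known. KO replicate 1 had the least Uqcrq (1.59 CPM) and the highest ratio (2.21), replicate 3 had 9.57 CPM and 1.90, replicate 4 had 13.97 CPM and 1.57, and replicate 2 had the most Uqcrq (15.6 CPM) and the lowest ratio (1.40). Hspa9 had 249 to 260.5 CPM in these libraries. In WT, Uqcrq of 26.3, 24.5, 26.8 and 31.5 CPM stood beside ratios of 1.04, 1.04, 1.34 and 1.21. The summed endothelial markers of the KO libraries followed the order of the ratio, at 14801, 12614, 12572 and 11387 CPM in replicates 1, 3, 4 and 2. In WT replicates 1 to 4 they were at 14043, 15470, 13628 and 13183 CPM. Y-linked genes summed to 1.22, 1.19, 172 and 219 CPM in KO replicates 1, 3, 4 and 2. In WT replicates 1 to 4 they summed to 153, 0.345, 3.44 and 150 CPM, so both groups mixed high and low Y-linked levels. The KO libraries with the higher Y-linked level had the lower ratios. Uqcrq, endothelial marker level and Y-linked level thus cannot be told apart here as companions of the ratio. With 4 libraries a group no relation was tested.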
